A study of Mus musculus with 6 samples.

Results

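The EGR transcription factors (Egr1, Egr2, Egr3 and Egr4) and the NAB corepressors that bind them (Nab1 and Nab2) were followed in mouse C8D1A cells, a cloned astrocyte line, after pulsed radiofrequency (PRF). PRF applies short bursts of high-frequency current and is used against neuropathic pain. The 6 genes were chosen by name, with earlier results of these data known. Probes were assigned through the RefSeq transcript that the array files give, and 8 of 56605 probes, standing for 5 of 22911 named genes, belonged to them. No probe was assigned to Nab1, so Nab1 was not analysed here.

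RNA was measured on 6 one-colour arrays, 3 from PRF-treated cells and 3 from untreated control cells. Both groups were the same cells, grown for 6 days with 10% serum and then held without serum for 24 h before use. Per the series' design text the 3 arrays of a group come from independent experiments, and total RNA had an integrity number of at least 9.5. All cells derive from 1 cloned line, while neither the PRF settings nor how long after PRF the cells were lysed were found in the sources used here.

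EGR proteins are zinc finger transcription factors that bind GC-rich DNA. Their genes are immediate early genes: growth factors, depolarisation or stress activate ERK and related kinases, which phosphorylate partners of the serum response factor SRF already sitting on CArG boxes in the promoters, so that transcription starts without new protein synthesis. NAB1 and NAB2 dock on an inhibitory domain of EGR1, EGR2 and EGR3 and repress their target genes. In other cell types NAB2 is itself induced by EGR factors, which closes a negative feedback loop.

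The 2 promoter windows below belong to Egr2 and Nab2, which both rose, and are shown so that their known control elements can be looked for. They are the RefSeq windows of build GRCm38.p6, from 250 bases before to 50 bases after a transcription start, given 5′ to 3′ on the strand of the gene. Capitals mark a CArG box. The Egr2 window is chr10:67537619-67537918 on the plus strand, 1 of 5 windows of that gene, and the Nab2 window is chr10:127666654-127666953 on the minus strand.
Egr2: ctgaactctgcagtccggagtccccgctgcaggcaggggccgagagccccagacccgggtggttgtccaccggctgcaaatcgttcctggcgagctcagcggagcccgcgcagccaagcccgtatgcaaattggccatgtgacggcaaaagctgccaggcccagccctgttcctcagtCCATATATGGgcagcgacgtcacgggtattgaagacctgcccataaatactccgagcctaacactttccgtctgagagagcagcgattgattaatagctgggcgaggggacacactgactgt
Nab2: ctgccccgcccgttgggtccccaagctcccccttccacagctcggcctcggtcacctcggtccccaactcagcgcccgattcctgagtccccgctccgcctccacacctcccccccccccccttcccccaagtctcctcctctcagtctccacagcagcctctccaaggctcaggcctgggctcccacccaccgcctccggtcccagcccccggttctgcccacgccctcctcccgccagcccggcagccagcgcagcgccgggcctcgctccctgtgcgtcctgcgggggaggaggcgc

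The search covered both strands for the CArG box, for the EGR sites GCGTGGGCG and GCGGGGGCG, and for the cyclic AMP response element TGACGTCA. None of these motifs holds the letters of another. A CArG box was found in 1.63% of 32817 promoter windows of the table, GCGTGGGCG in 0.612%, GCGGGGGCG in 2.91% and TGACGTCA in 1.79%. The box CCATATATGG of Egr2 lay 72 bases before the start in the window shown. The windows of 2 further Egr2 starts nearby reach over the same box. The window of another start, chr10:67537316-67537615, held a different box, CCTTTTTTGG, and the fifth held none. The Nab2 window held none of the motifs, nor did the Egr4 window. The Nab1 window held GCGTGGGCG in 2 places and GCGGGGGCG in 1, but the gene was not measured. A match is a match of letters and not a site shown to be bound.

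A spot was taken as well above background where the scanner software flagged it so. That held for 62.1% to 63.9% of probes in PRF cells, against 59.5% to 61.2% in control cells. Levels below are log2 signals minus the 75th percentile of the array, which was a signal of 544 to 634 on the PRF arrays and of 597 to 674 on the control arrays. Changes are PRF minus control in these levels. A level of a probe can be compared between arrays but not with that of another probe. Precision is limited by having 3 arrays in each group, and p-values measure the spread between these experiments. In a culture measured in bulk, fewer cells making an RNA and less RNA per cell cannot be told apart.

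The astrocyte label was checked against 13 markers, of which 11 were well above background, including Gfap, Vim and S100b, and 3 (Apoe, Clu and Glul) rose after PRF. Gfap, Slc1a2 and Aqp4 were dim, with Gfap at a level of -2.68 in PRF cells and -2.76 in control cells. The 11 tested astrocyte markers summed to between 187 and 193 times the 75th percentile on the PRF arrays. On the control arrays they summed to between 164 and 176 times. Most of these sums came from Vim and S100b, at levels of 6.88 and 6.02 in PRF cells and of 6.72 and 5.89 in control cells. The sums add different probes, whose levels cannot be compared. No probe of Slc1a3 or Gja1 was well above background on any array. Among 20 markers of other cell types, 7 were at background on every array. These were Rbfox3 of neurons, Aif1, Cx3cr1, P2ry12 and Ptprc of microglia, and the endothelial and mural markers Cdh5 and Rgs5. Tubb3, Map2 and Snap25 of neurons and the 5 oligodendrocyte markers, Sox10 among them, were well above background on all arrays. The 12 tested genes of other cell types summed to between 173 and 180 times the 75th percentile on the PRF arrays. On the control arrays these genes summed to between 172 and 179 times. Most of this came from the oligodendrocyte markers, with sums of 126 to 141 on the PRF arrays and of 136 to 146 on the control arrays. Of these 12 genes 3 were higher (Snap25, Itgam and Kdr) and 3 lower (Pdgfrb, Mog and Sox10) in PRF cells. Kdr was at background on all 3 control arrays and entered the test only through the PRF arrays. The only microglial gene above background, Itgam, was at 12.5 to 17.2 times the 75th percentile on the PRF arrays and at 8.19 to 8.65 times on the control arrays. The part of these genes in the results below was not tested.

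Egr1, Egr2, Egr3 and Nab2 were all higher after PRF, by 7.24-fold for Egr1, 4.11-fold for Egr2, 2.73-fold for Egr3 and 1.99-fold for the corepressor gene Nab2. The brightest probe of each was well above background on all 6 arrays, so none of the 4 was tested only because it was bright after PRF. All 4 passed the test, limma with Benjamini-Hochberg adjustment over 34838 tested probes at a threshold of 0.05, by which 16.3% of 15069 tested genes, and 12.5% of those well above background on all 6 arrays, were higher in PRF cells. In all 4 the 3 PRF arrays lay above the 3 control arrays, as they did in 25.6% of tested genes. Of the 8 probes 6 were tested, 1 of them admitted only through the PRF arrays, and these 6 passed and had groups that did not overlap. Among all tested probes 18.4% passed with a rise and 27.7% had every PRF array above every control array. Egr4 was at background throughout.

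Egr1, also known as Zif268 or Krox-24, is the best known factor of the family and serves as a marker of recent stimulation in neurons and glia. Its probe (A_51_P367866, transcript NM_007913) gave processed signals of 12877, 9259 and 8295 on the PRF arrays, against 1849, 1494 and 1263 on the control arrays. The lowest PRF array was several times brighter than the highest control array. On the log2 scale the level was 4.11 ± 0.22 in PRF cells and 1.26 ± 0.19 in control cells (SD, n = 3 each). The change was 2.86 (SE 0.14, 95% interval 2.51 to 3.20, limma adjusted p = 9.71e-05), the 375th largest rise among 15069 tested genes.

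Egr2, also known as Krox-20, is required for myelination by Schwann cells. Its probe (A_51_P173043, transcript NM_010118) had signals of 5918, 3853 and 3166 on the PRF arrays, against 1596, 1098 and 797 on the control arrays. Each PRF array was brighter than every control array, although the arrays of a group spread more widely than for Egr1. The log2 level was 2.85 ± 0.35 in PRF cells and 0.82 ± 0.41 in control cells (SD, n = 3 each), a change of 2.04 (SE 0.26, 95% interval 1.42 to 2.65, limma adjusted p = 0.00227).

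Egr3, which controls the development of muscle spindles and is known as a partner of Egr1 in neurons and lymphocytes, was dim, and 3 probes read it. The brightest (A_55_P2787986, transcript NM_001289925) had signals of 242, 183 and 157 on the PRF arrays, against 107.4, 86.7 and 48.7 on the control arrays. The groups did not overlap, and control replicate 3 lay well under the other control arrays. The log2 level was -1.60 ± 0.21 in PRF cells and -3.05 ± 0.50 in control cells (SD, n = 3 each), a change of 1.45 (SE 0.26, 95% interval 0.83 to 2.07, limma adjusted p = 0.00801).

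The second Egr3 probe (A_52_P440836), on the same transcript, had signals of 116, 56.2 and 57.3 on the PRF arrays, against 29.6, 32.4 and 6.55 on the control arrays, of which replicate 3 was not well above background. Its change was 2.11 (SE 0.60, 95% interval 0.65 to 3.56, limma adjusted p = 0.0409), and the filter admitted it only through the PRF arrays. The call was lost without control replicate 1 (limma adjusted p = 0.0551), without PRF replicate 1 (0.119), without PRF replicate 2 (0.0852), without PRF replicate 3 (0.0677), with quantile normalization (0.061), with no filter (0.0904) and with the array row as a block (0.0846). With normexp background correction the rise was 1.60-fold, against 4.30-fold here. The third probe (A_51_P437198, transcript NM_018781) had signals of 16.9, 6.42 and 6.66 on the PRF arrays, where only replicate 1 was well above background, and of 2.35, 2.40 and 2.40 on the control arrays, none of which was. It did not enter the test, and no fold is given for it.

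Egr4, a family member mostly known from neurons, stayed at background on all 6 arrays. Its only probe (A_51_P270426, transcript NM_020596) had signals of 9.01, 5.07 and 2.52 on the PRF arrays, against 5.42, 2.47 and 2.55 on the control arrays. The groups overlapped at this low signal. A change of Egr4 was therefore not measurable here, which does not show that it was absent.

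Nab2 was well above background in both groups. The brighter of its 2 probes (A_55_P2071059, transcript NM_008668) had signals of 19834, 15741 and 14042 on the PRF arrays, against 12241, 9309 and 6511 on the control arrays. The lowest PRF array was close to the highest control array. The log2 level was 4.83 ± 0.15 in PRF cells and 3.83 ± 0.37 in control cells (SD, n = 3 each), a change of 0.995 (SE 0.19, 95% interval 0.53 to 1.46, limma adjusted p = 0.0107).

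The dimmer Nab2 probe (A_55_P2138966), placed on another transcript of the gene, NM_001122895, gave 62.2, 42.3 and 44.3 on the PRF arrays, against 29.6, 26.2 and 21.5 on the control arrays. Its change was 1.08 (SE 0.12, limma adjusted p = 0.00155), a 2.11-fold rise beside the 1.99-fold rise of the brighter probe. The 95% intervals, 0.78 to 1.37 and 0.53 to 1.46, overlapped, so the rises read on the 2 transcripts were not told apart. With normexp background correction the dimmer probe rose 1.43-fold.

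**Figure D1:**
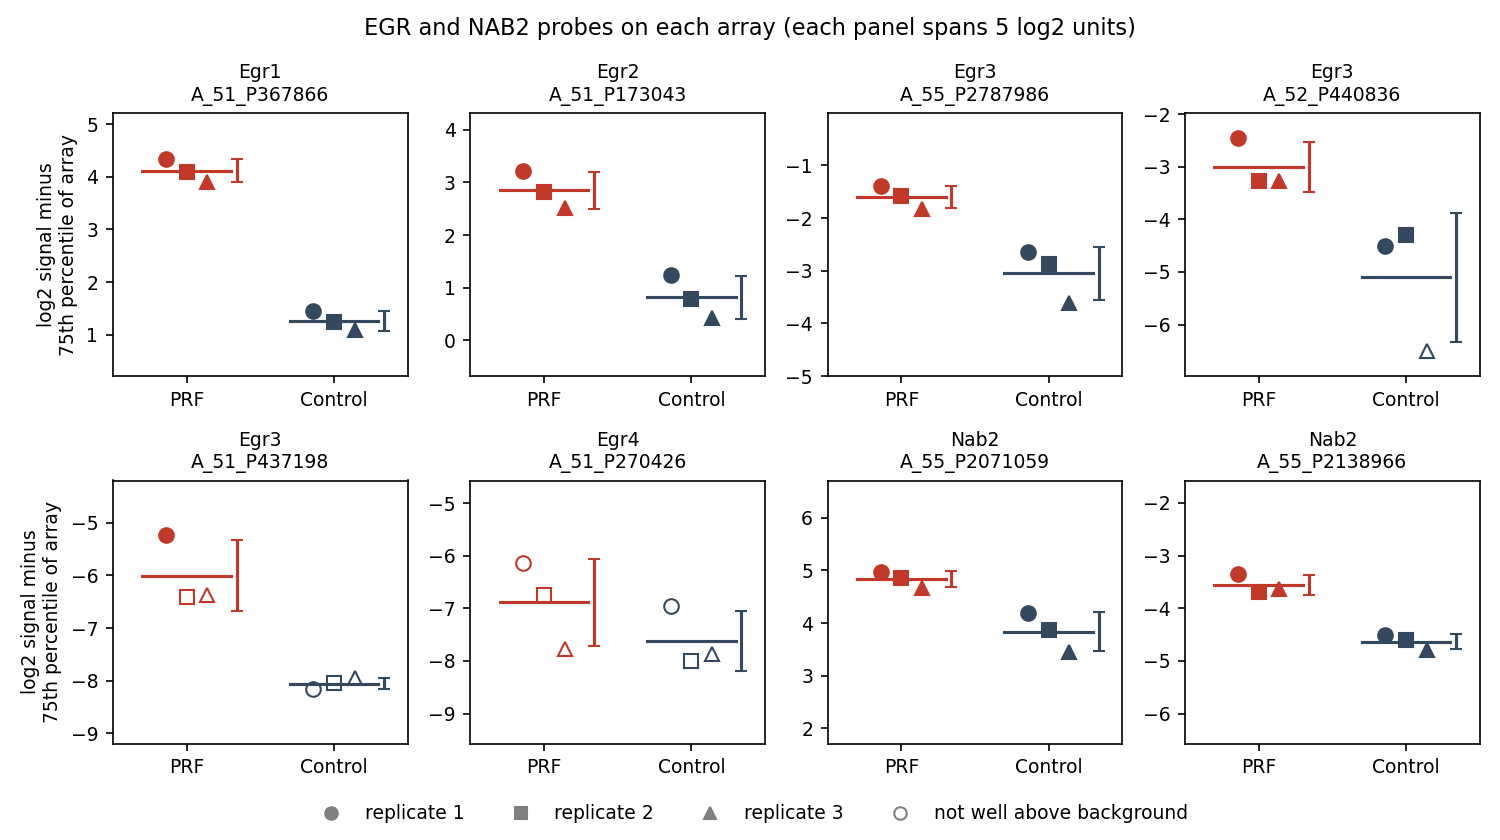
Levels of the 8 EGR and NAB2 probes as log2 signal minus the 75th percentile of the array, with PRF arrays left of control arrays, symbols for replicates, open symbols for spots not well above background, lines for group means and bars for 1 SD (n = 3). The brightest probes of Egr1, Egr2, Egr3 and Nab2 had every PRF array above every control array, while the Egr4 groups overlapped at background.

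Within each group the arrays kept their order across the brightest probes of the genes that were measured. Among the PRF arrays replicate 1 was the highest and replicate 3 the lowest for Egr1, Egr2, Egr3 and Nab2, with deviations from the group mean of 0.23 and -0.21 for Egr1 and of 0.37 and -0.34 for Egr2. Among the control arrays replicate 1 was again the highest and replicate 3 the lowest for these genes, at 0.20 and -0.17 for Egr1 and at 0.35 and -0.39 for Nab2. Control replicate 3 was furthest from its group for Egr3, at -0.57. The dimmer tested probes did not keep this order. Control replicate 2 was the highest control array on the second Egr3 probe. PRF replicate 2 was the lowest PRF array on that probe and on the dimmer Nab2 probe. These are descriptions of 6 arrays, and the labels do not say whether a replicate number marks a shared experiment. In both groups replicates 1, 2 and 3 lay in columns 1, 2 and 3 of the slide, so replicate and column cannot be told apart.

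**Figure D2:**
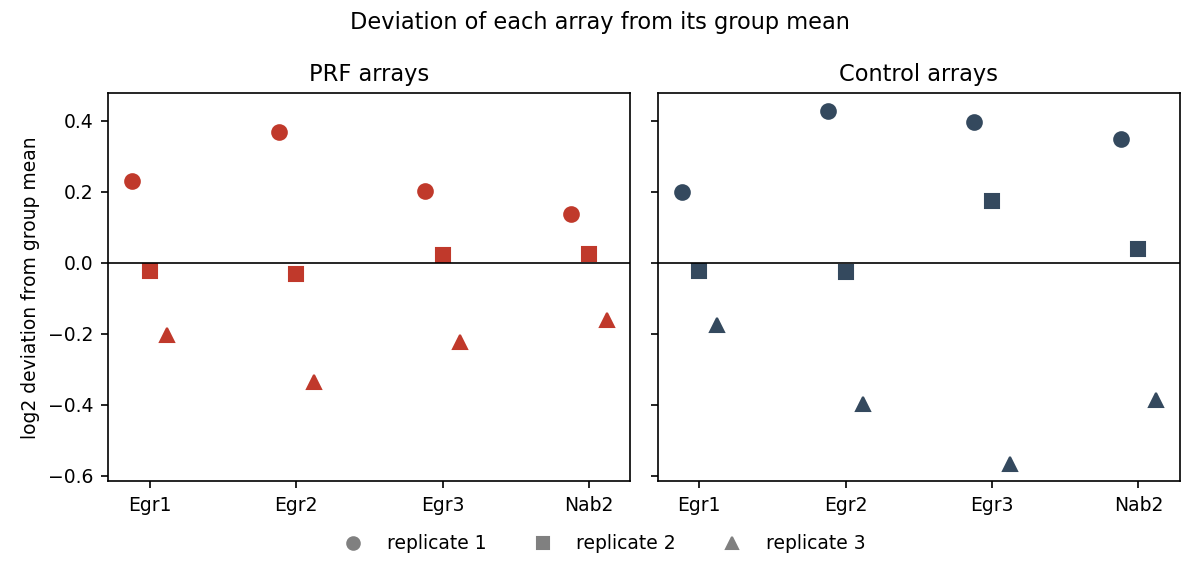
Deviation of each array from the mean of its group, in log2 units, for the brightest probe of Egr1, Egr2, Egr3 and Nab2, with PRF arrays in the left panel, control arrays in the right panel and symbols for replicates. In both panels replicate 1 lies above 0 and replicate 3 below 0 for all 4 genes.

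Differences between the members' rises were taken within each array, where no scaling between arrays enters. The brightest probe stood for each gene. The log2 difference of Egr1 and Nab2 was -0.77 to -0.62 on the PRF arrays, against -2.73 to -2.37 on the control arrays, so the Egr1 rise exceeded the Nab2 rise by 1.86 log2 units, or 3.63-fold. The Egr1 rise exceeded that of Egr2 by 0.82 and that of Egr3 by 1.41, and the Egr2 rise exceeded those of Egr3 and Nab2 by 0.59 and 1.04. The Egr3 rise exceeded that of Nab2 by 0.46, but with normexp background correction this difference was -0.06. In all 6 pairs the values of the PRF arrays lay above those of the control arrays, and each exact permutation test (two-sided, n = 3 each) gave p = 0.1, adjusted p = 0.1 over the 6 pairs, which is the smallest p that 3 against 3 arrays allow. None of these differences could therefore pass a threshold of 0.05. The second Egr3 probe changed by 2.11 (SE 0.60), above the 2.04 of Egr2, so the order of Egr2 and Egr3 depended on the Egr3 probe.

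The rises of the 4 genes kept their direction under every alternative tried. Leaving out arrays, splitting them by row or blocking on row could not reverse a direction, since every PRF array lay above every control array. The filters, the fit with 1 probe per gene and the replicate block could not alter the changes. The authors' own values were nearly the same intensities. Only other scalings and normexp background correction could have reversed a direction. Over 19 alternatives the Egr1 rise lay between 6.33-fold and 7.78-fold, the Egr2 rise between 3.58-fold and 4.76-fold, the Egr3 rise between 1.89-fold and 3.14-fold and the Nab2 rise between 1.74-fold and 2.25-fold. The arrays lay in 2 rows of 1 slide, with 1 PRF and 2 control arrays in row 1 and 2 PRF and 1 control arrays in row 2. With row as a block the log2 changes were 2.86, 2.04, 1.41 and 0.99 for Egr1, Egr2, Egr3 and Nab2 (limma adjusted p = 0.00111, 0.0101, 0.0264 and 0.0318). Within row 1 they were 2.82, 1.99, 1.56 and 1.04, and within row 2 they were 2.89, 2.08, 1.27 and 0.94. With 3 arrays in a row the Egr1 change in row 1 passed (limma adjusted p = 0.0116), while that of Egr1 in row 2 (0.0542) and those of the other genes in both rows (0.0709 to 0.178) did not.

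**Figure D3:**
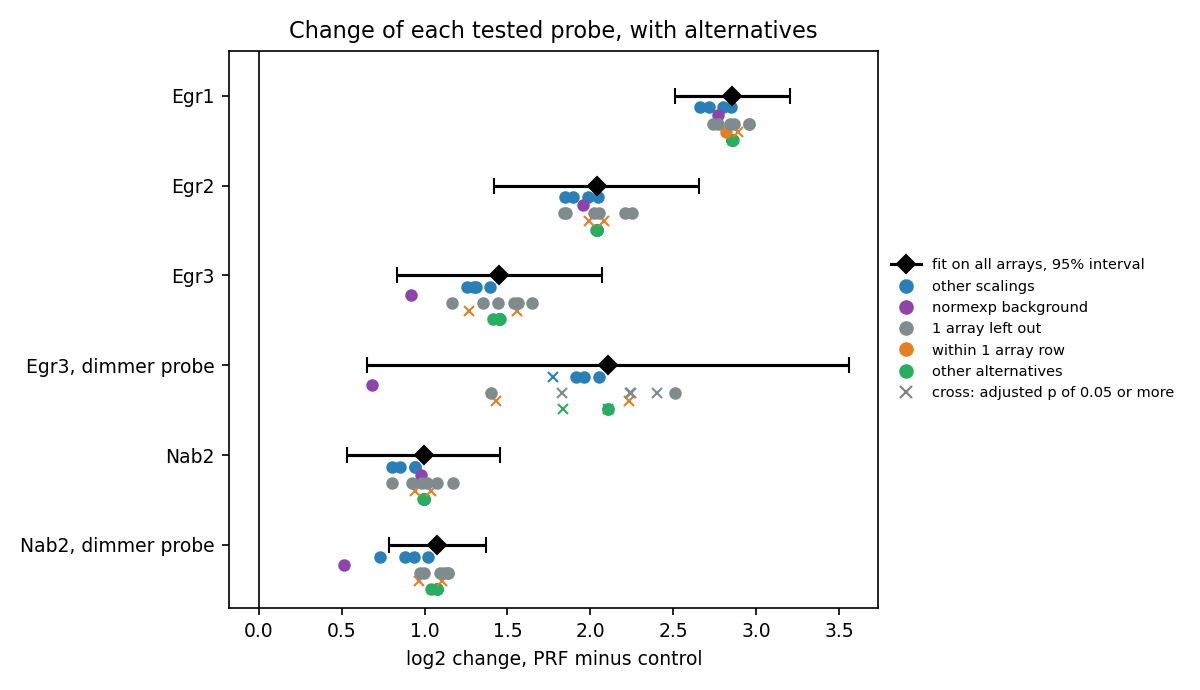
Log2 change (PRF minus control) of the 6 tested EGR and NAB2 probes, as diamonds with 95% intervals for the fit on all arrays and as smaller symbols for the alternatives, with crosses where the adjusted p was 0.05 or more. All values lie above 0, and those of Egr1 span 2.66 to 2.96.

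Genes whose log2 profile over the 6 arrays lay nearest to each member, by Euclidean distance after centring each gene, were looked up among 14046 other genes well above background on all arrays. Centring keeps the PRF minus control difference, so a small distance requires a similar fold. That the folds below resemble those of the members therefore follows from the selection and is not a separate result. Nearest to Egr1 were Serpinf2 (distance 0.20, 7.05-fold higher after PRF), Map7d3 (0.21, 6.81-fold) and Gm12250 (0.25, 7.21-fold). Among the 3 nearest to Egr2 were Cdkl1 (0.26, 4.05-fold) and Ccn1, a matricellular immediate early gene (0.33, 3.75-fold). Nearest to Egr3 were Pianp (0.26, 2.52-fold), Ankrd7 (0.29, 2.77-fold) and Cplx1, a regulator of synaptic vesicle release (0.33, 2.98-fold). Nearest to Nab2 were the collagen gene Col12a1 (0.18, 2.10-fold), the tyrosine aminotransferase gene Tat (0.21, 1.95-fold) and Klf10, a zinc finger factor induced early by TGF-beta (0.21, 2.06-fold). Control levels of Serpinf2, Map7d3, Gm12250, Cdkl1, Pianp, Ankrd7, Cplx1, Col12a1 and Tat lay between -5.13 and -3.98, so their folds rest on dim control signals. With normexp background correction Serpinf2, Map7d3 and Gm12250 rose 3.54-fold, 3.08-fold and 3.11-fold, while Egr1 rose 6.82-fold. Cdkl1 then rose 1.95-fold, Pianp 1.42-fold, Ankrd7 1.57-fold, Cplx1 1.75-fold, Col12a1 1.29-fold and Tat 1.26-fold.

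The genes around the family were described by lists, which were also chosen with earlier results of these data known. Across all tested genes 16.3% rose, 13.5% fell and the median change was -0.01. At an unadjusted p below 0.05 in limma, 3138 of the 15069 tested genes were higher and 3095 were lower, beside which the unadjusted counts of the lists below are to be read. Of the called probes 59.2% were higher in PRF cells, against 28.9% to 49.5% with the other 4 scalings. Of 24 tested genes of the pathway that switches EGR genes on, 1 rose and 4 fell, with a median change of -0.04. Srf, the factor that sits on CArG boxes, rose by 0.63 (SE 0.17, limma adjusted p = 0.0315). Mrtfb and Mrtfa, actin-regulated partners of SRF, fell by 0.56 and 0.38 (limma adjusted p = 0.00569 and 0.0388), and Rps6ka5, a kinase of histone H3 and CREB, by 0.29 (limma adjusted p = 0.0397). The fourth gene that fell was Araf. Elk1, the ERK-regulated partner of SRF, had levels of 8.50 ± 0.10 in PRF cells and 8.32 ± 0.10 in control cells (SD, n = 3 each) and did not pass (limma adjusted p = 0.164). Of the named calls only that of Mrtfb held without each single array. That of Srf was lost without control replicate 2 or 3 and without PRF replicate 1 or 2 (limma adjusted p from 0.0763 to 0.0853), and on the deposited scale (0.136). With 1 array left out 2 genes of the list passed without control replicate 1, 3 without PRF replicate 3 and 1 without each of the others, and with spike-in scaling 0 rose and 9 fell.

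Of 21 tested immediate early factors of other families 14 rose and 2 fell, with a median change of 0.62. Fosb rose 5.22-fold, Csrnp1 4.90-fold, Junb 2.78-fold and Fosl2 2.70-fold (limma adjusted p = 0.002, 0.000139, 0.000161 and 0.00157). With normexp background correction these rises were 3.61-fold, 4.70-fold, 2.74-fold and 2.62-fold. The AP-1 subunit Jund and the survival gene Ier3 did not pass, with levels of 4.83 ± 0.04 and 3.67 ± 0.13 in PRF cells and of 4.83 ± 0.11 and 3.92 ± 0.05 in control cells (SD, n = 3 each). Fos, Klf4 and Nr4a3 did not pass either (limma adjusted p = 0.238, 0.521 and 0.707). The genes that fell were Klf2 and Myc. Fos, Klf4, Nr4a3, Klf2 and Myc were named after their values were seen. With other scalings between 10 and 13 of the 21 rose and 2 or 3 fell, Ier3 among those that fell with 3 of the 4 scalings.

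Genes known as EGR1 targets from other cell types were partly higher. Of 22 tested genes 9 rose and 0 fell by limma's adjusted p, against 12 and 0 at an unadjusted p below 0.05, and the median change was 0.22. Gdf15, a stress-induced cytokine, rose by 3.51 (SE 0.47, limma adjusted p = 0.00289), with 2 of 3 control arrays well above background, so it entered the test only through the PRF arrays. With normexp background correction its rise was 2.48-fold, against 11.4-fold here. Cdk5r1, the p35 activator of CDK5, rose 2.76-fold (limma adjusted p = 0.0229), Arc, an activity-regulated gene of synapses, 2.33-fold (0.00959) and Pdgfb, a growth factor chain, 2.004-fold (0.00778). Pdgfa and Fn1, also known targets, had log2 changes of 0.14 and -0.02 and did not pass (limma adjusted p = 0.201 and 0.884). Icam1 and Mmp14 were not well above background on any array, and Plau was so on 2 PRF arrays and on 0 control arrays. Without control replicate 1, 2 or 3 or PRF replicate 1 the count was 6. It was 4 without PRF replicate 2 and 9 without PRF replicate 3. On the deposited scale it was 5, and with spike-in scaling 5 rose and 1 fell. Cdk5r1 missed the threshold without control replicate 3 (limma adjusted p = 0.0645) and without PRF replicate 1 or 2 (0.0636 and 0.0747). Other factors are known to act on many of these genes, and binding of EGR1 was not measured.

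Targets of EGR2 and EGR3 known from other tissues were described by 2 short lists. Of 11 tested genes that EGR2 activates in Schwann cells 1 rose and 0 fell, against 2 and 1 at an unadjusted p below 0.05 in limma. The gene that rose was Mbp, a myelin protein, 1.99-fold (limma adjusted p = 0.00847), while Sqle, an enzyme of sterol synthesis, had a log2 change of 0.14 and did not pass (0.181). Mbp was dim, at a level of -4.04 in control cells, and with normexp background correction its rise was 1.46-fold. The count of called genes was 2 without control replicate 1, with normexp, with the filter on all 6 arrays and with 1 probe per gene. With quantile normalization it was 4, 2 of them lower. With spike-in scaling 1 gene of this list rose and 2 fell. Of 6 tested targets of EGR2 and EGR3 in lymphocytes 2 rose and 0 fell, against 2 and 1 at an unadjusted p. Nfil3, a bZIP repressor, rose 4.62-fold (limma adjusted p = 0.000177) and Ndrg1, a stress-responsive gene, 1.22-fold (0.0299). The call of Ndrg1 was lost without any single array except PRF replicate 1 (limma adjusted p from 0.0719 to 0.0978) and under each other scaling but quantile normalization. The diacylglycerol kinase genes Dgka and Dgkz had changes of -0.13 and -0.10 and did not pass. With spike-in scaling both fell, by 0.32 and 0.29 (limma adjusted p = 0.0245 and 0.0296), and 1 gene of the list rose and 3 fell.

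NAB proteins repress through the NuRD chromatin complex, and of its 13 genes tested 0 rose and 0 fell by limma's adjusted p, against 2 and 0 at an unadjusted p below 0.05 and 1 and 0 in a fit with 1 probe per gene. Their changes lay between -0.12 and 0.19. The deacetylase gene Hdac1 had levels of 5.53 ± 0.05 in PRF cells and 5.57 ± 0.02 in control cells, and the histone chaperone gene Rbbp4 had levels of 6.59 ± 0.02 in PRF cells and 6.51 ± 0.05 in control cells (SD, n = 3 each). Of other zinc finger factors that bind GC-rich sites, Sp1 and Sp3 had changes of -0.04 and -0.02 and did not pass (limma adjusted p = 0.779 and 0.888), and Wt1 was at background on all arrays.

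**Figure D4:**
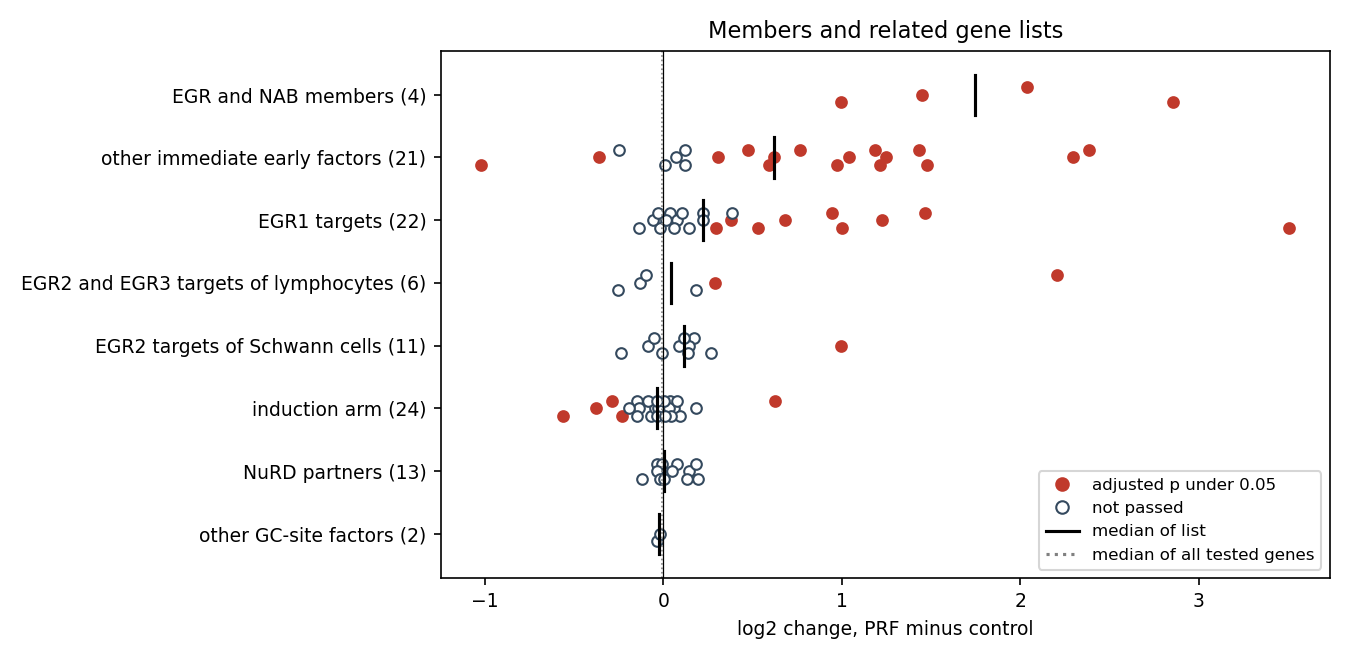
Log2 change (PRF minus control) of each tested gene, in rows for the 4 measured members and for 7 related lists with the number of genes in brackets, filled where the adjusted p was under 0.05. Black bars mark the median of each list, 0.62 for the other immediate early factors, 0.22 for EGR1 targets and 0.00 for the NuRD genes, and the dotted line the median of all tested genes.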

How the data were processed

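The deposited intensity of each spot is the processed signal of Agilent Feature Extraction (version 10.7.3.1 in the file headers), which is corrected for background, carries quality flags and is not normalized between arrays. The authors' deposited series table held the same intensity on a linear scale, equal within a relative tolerance of 0.0001 for at least 99.98% of probes. Their own normalization and tests were not found in the sources used here. All 6 arrays share 1 slide and 1 scan.

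Control spots and outlier spots (at most 85 per array) were left out, spots of a probe were averaged on the log2 scale, and the 75th percentile of each array was subtracted. Probes well above background on all 3 arrays of a group were tested (34838 of 56605). limma 3.58.1 in R 4.3.3 (lmFit, eBayes, group only) was used, and tested on simulated data, with Benjamini-Hochberg adjustment over all tested probes. The tested probe with the highest mean stood for its gene. Transcripts were named through the RefSeq table of GRCm38.p6, which matched 32994 probes. The array design refers to an older build, so no coordinates of array probes are given. Coordinates of promoter windows are those of GRCm38.p6.

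The members and the 7 gene lists (104 genes) were chosen with earlier results of these data known. Named were all member probes, up to 4 passing genes of each list with the largest change, up to 2 non-passing ones with the highest signal, and the 3 nearest profiles of each member, except 3 genes that are not reported here. Alternatives covered scaling, background correction, the series table, filters, the unit of the fit, blocks, array rows and leaving out each array.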

Additional observations from a re-analysis of the deposited data

How the results depend on the processing

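The rises of Egr1, Egr2, Egr3 and Nab2 kept their direction under all 19 alternatives, of which only the other scalings and normexp background correction could have reversed it. The rises stayed past the threshold under all but the fits within 1 array row, which hold 3 arrays each. There the log2 changes were 1.99, 1.56 and 1.04 for Egr2, Egr3 and Nab2 in row 1 and 2.89, 2.08, 1.27 and 0.94 for Egr1, Egr2, Egr3 and Nab2 in row 2. Leaving out each array in turn gave 2.74 to 2.96 for Egr1, 1.84 to 2.25 for Egr2, 1.17 to 1.65 for Egr3 and 0.80 to 1.17 for Nab2. The number of called probes, 10833 in all, was 3209 within row 1, 162 within row 2 and 7220 to 10684 with 1 array left out, lowest without PRF replicate 2. Called genes of the related lists, 33 in all, numbered 10 within row 1, 1 within row 2 and 20 to 29 with 1 array left out, lowest without PRF replicate 2. These fits hold fewer arrays, and the cause of the lower counts was not tested.

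With normexp the difference between the rises was 1.85 for Egr1 and Egr3, 1.04 for Egr2 and Egr3 and -0.0601 for Egr3 and Nab2, and the cause was not tested. Scaling shifted the median change of all tested probes to -0.18 with spike-in scaling and -0.12 on the deposited scale, against 0.02. Of called probes 59.2% were higher in PRF cells, against 28.9% with spike-in scaling, 38.3% on the deposited scale, 41.4% with quantile normalization and 49.5% with the median of tested probes.

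Changes of the opposite sign occurred among named genes that did not pass. With spike-in scaling they were -0.0136 for Elk1, -0.187 for Jund, -0.0517 for Pdgfa, -0.0534 for Sqle and -0.119 for Rbbp4. On the deposited scale they were -0.134 for Jund, -4e-04 for Sqle and -0.0656 for Rbbp4, with quantile normalization -0.0609 for Jund, -0.0403 for Rbbp4 and 0.0127 for Sp3, and with the median of tested probes -0.047 for Jund. Jund was at -0.0167 with normexp, and within row 1 Jund, Fn1, Hdac1 and Sp3 were at -0.092, 0.0958, 0.0045 and 0.0312. With 1 array left out Jund ranged from -0.0443 to 0.065, Fn1 from -0.0574 to 0.0422, Sp1 from -0.105 to 0.003 and Sp3 from -0.0709 to 0.041.

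The replicate numbers are not stated to pair the arrays, and same-numbered arrays deviated from their group means with correlations of 0.15, -0.08 and 0.05 over all tested probes. Neither PRF replicate 2 nor PRF replicate 3 correlated best with its own number. A fit with a replicate block called 9422 probes and 28 list genes, and Egr1, Egr2, Egr3 and Nab2 passed (limma adjusted p = 0.000977, 0.00111, 0.00584 and 0.00799). The log2 changes of these genes were 2.86, 2.04, 1.45 and 0.995 with the replicate block. Replicate number equalled the column of the array on the slide, so this block cannot tell an experiment from a column.

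Nab1 and Egr4 have no values under the alternatives, since Nab1 had no named probe and Egr4 did not enter a test.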
